A study of Mus musculus with 2 samples.

Results

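Transcript levels of the nuclear-encoded subunits of the oxidative phosphorylation machinery were compared between C2C12 myoblasts depleted of Mybbp1a and control myoblasts. Members were taken by the gene name printed in the array files: names beginning with Nduf followed by a, b, c, s or v, the Sdh genes, names beginning with Uqcr, Cyc1, the Cox subunit genes and the Atp5 genes. The rule took 79 genes, represented by 111 probes, among the 27578 gene names on the array, and used no measured value. The names divide into 36 genes of complex I, 4 of complex II, 8 of complex III, 15 of complex IV and 14 of complex V, and the remaining 2 are complex I assembly factors. These are Ndufaf1 and the gene the files call Ndufa12l, which was set with the assembly factors because its current symbol is Ndufaf2.

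C2C12 is an established line of mouse skeletal myoblasts from adult leg muscle of strain C3H. The cells stably expressed a short hairpin RNA that was either directed at Mybbp1a or a control, and were grown below confluence in medium rich in serum. Mybbp1a encodes a mainly nucleolar protein that binds transcription factors, among them PGC-1α, a coactivator of mitochondrial genes. The 2 arrays each paired knockdown RNA in the Cy5 dye with control RNA in the Cy3 dye. The dyes were never exchanged, so a dye bias that is left after normalization and an effect of the knockdown cannot be told apart. Per the labels, the cells were mixed stable clones and the arrays biological replicates, without a statement on whether infections or cultures were separate. What the p-values measure is thus the spread of these samples alone, and that spread may be technical. Each array had its own slide, which means that effects of slide and of replicate cannot be told apart.

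Oxidative phosphorylation takes electrons from NADH at complex I and from succinate at complex II and passes them through ubiquinone, complex III and cytochrome c to oxygen at complex IV. Complexes I, III and IV pump protons across the inner mitochondrial membrane, and complex V, the ATP synthase, uses their return to make ATP. Most subunits are encoded in the nucleus and a few, all of them in the hydrophobic cores, in mitochondrial DNA, while complex II is entirely nuclear. Several complex IV subunits exist as a ubiquitous form and a form of striated muscle, which replaces it as muscle differentiates.

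Ratios below are log2 values of knockdown over control after normalization, given for array 1 and then array 2, so that a value of 1 stands for a doubling. Raw signals in Cy5 were higher than in Cy3 over the whole array (medians of 329 and 449 against 159 and 184), which is why raw signals of the dyes are not divided by each other here. Mybbp1a itself read -1.64 and -1.91, a mean of -1.78 ± 0.19 (SD, n = 2), with an adjusted p of 0.176 by limma with Benjamini-Hochberg adjustment. That was the lowest adjusted p among the 18069 genes tested, so no gene passed the threshold of 0.05. All 8 myoblast markers examined were well above background in both dyes on both arrays. Of 5 fibroblast markers, 4 were as well, and all 4 read higher in the knockdown on both arrays with a median of 1.09, while Thy1 was not well above background. The summed raw signal of the fibroblast markers was 62164 to 78389 in the knockdown dye and 4126 to 11352 in the control dye. Of 5 leukocyte markers, 3 were above background in both dyes on both arrays, while the defining marker Ptprc was not in either dye. The 3 had a median of 0.02. Of 5 endothelial markers, 1 was, and Pecam1 was not in either dye. The 2 that could be tested, Cdh5 and Tek, read higher on both arrays with means of 0.86 and 0.18. The control signal of Cdh5 was well above background on 1 array only, so its mean is not read as a fold. Of 5 adipocyte markers, 2 were, and among the 3 tested Lpl read 1.21 and 1.56 beside a median of 0.00096. The summed raw signals in the knockdown and control dyes were 5313 to 5606 and 2505 to 2563 for leukocyte, 838 to 1375 and 427 to 581 for endothelial, and 21487 to 26345 and 3971 to 4371 for adipocyte markers. What part cells of these kinds have in the ratios of the subunits was not tested.

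As a set, the subunits lay close to equal levels in knockdown and control cells on the scale of the loess normalization used. That scale removes the part of the ratio that follows spot brightness. When each array was only centred on its median, the members' median ratio was 0.48 beside 0.21 for all genes. A total of 78 members were tested, since the testis form Cox8c was not well above background anywhere. With limma and Benjamini-Hochberg adjustment 0 of 78 were called, beside 0% of all genes tested, and members' adjusted p-values ran from 0.178 to 0.988. At an unadjusted limma p under 0.05, 9 members read higher, which is 11.5% of members beside 13.4% of all genes tested. None read lower at that level, beside 7.49% of all genes. The 9 were Uqcrh, Atp5b, Atp5j, Cox6a1, Cox6c, Atp5c1, Cox7a1, Ndufa6 and Ndufa1.

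On the loess scale, the signs told the same story of small departures. On both arrays 32 members read higher in the knockdown, 41.0% of members beside 40.6% of all genes tested. A further 18 read lower on both, 23.1% beside 29.4%, and the other 28 had opposite signs on the arrays. The median ratio of the members was 0.07 on array 1, 0.01 on array 2 and 0.06 over the mean of both, beside 0.03 for all genes by each of these measures. No member was 1.5-fold higher on both arrays, beside 2.62% of all genes, and none was 1.5-fold lower on both, beside 0.338%. None reached 2-fold on both arrays in either direction, beside 0.631% of all genes higher and 0.0553% lower. Members within 1.5-fold on both arrays numbered 73, which is 93.6% beside 86.2% of all genes. The means of members had an SD of 0.20 across genes, and those of all genes an SD of 0.33.

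**Figure D1:**
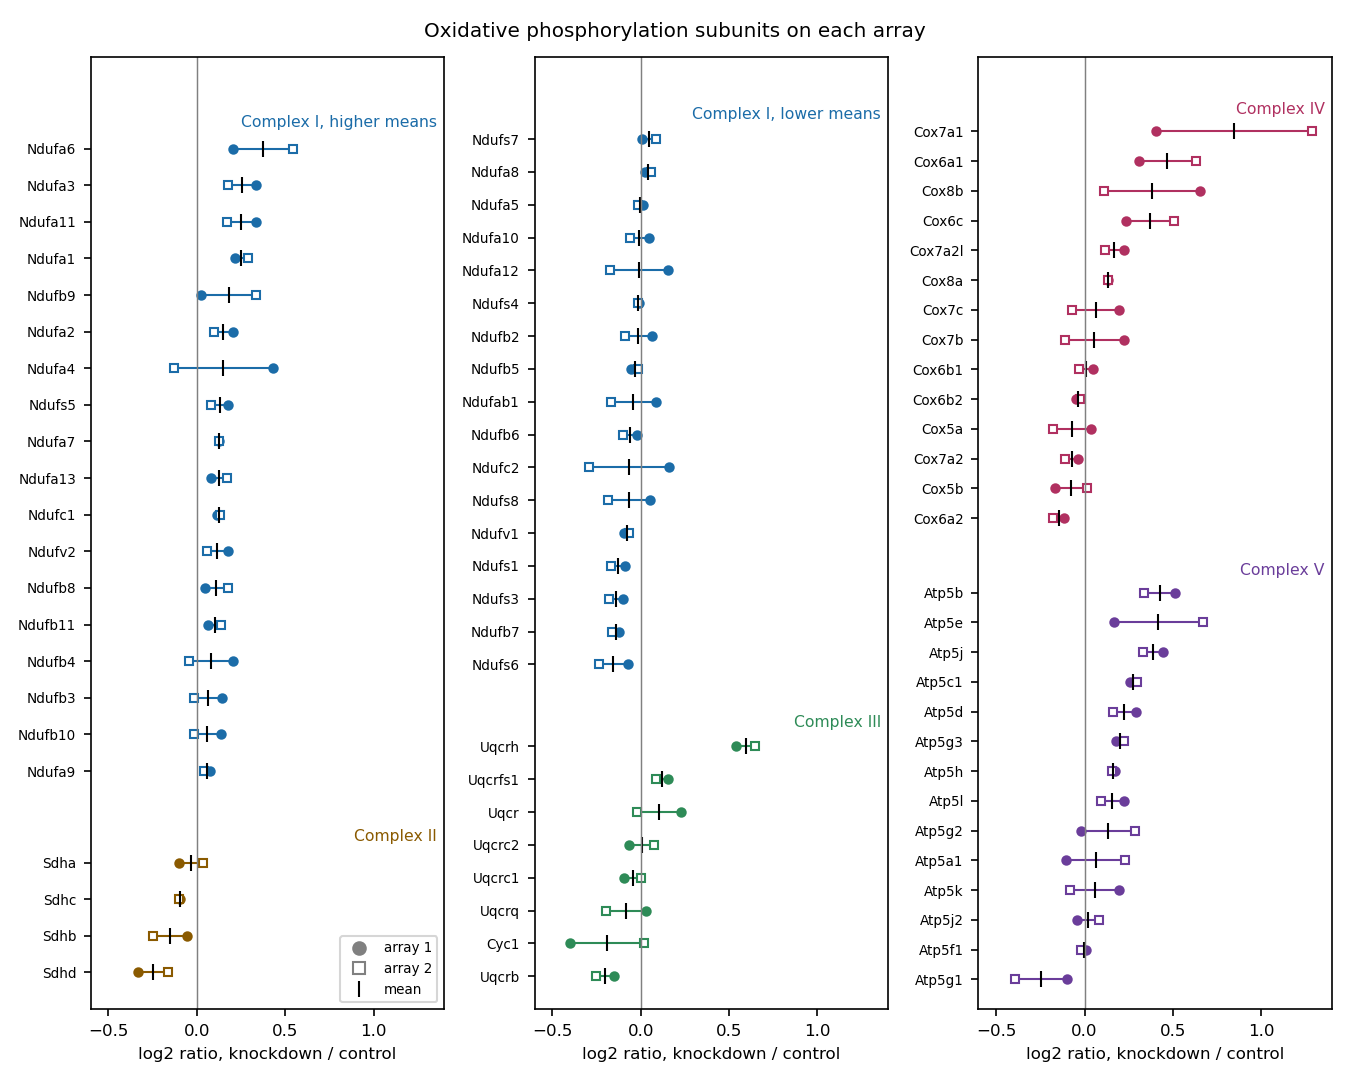
Log2 ratio of knockdown over control for the tested subunits on array 1 (filled circles), array 2 (open squares) and their mean (black ticks), by complex, with genes ordered by mean and 1 complex I gene not drawn. Most subunits lie within 0.5 of equality, Cox7a1 reaches 1.29 on array 2, and all 4 subunits of complex II have means below 0 (-0.25 to -0.03). The second Sdha probe, which is not drawn, had a mean of 0.22.

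These signs, and how near to equality the members lay, depend on the scaling of each array. Loess, the normalization used throughout, removes the part of the ratio that follows spot brightness. When each array was instead only centred on its median, the median of all genes moved from 0.03 to 0.21 and that of the members from 0.06 to 0.48. Under that centring limma with Benjamini-Hochberg adjustment called 32 of 78 members, all higher, and 3095 of 18069 genes in all, 3037 higher and 58 lower. Of all genes at a mean log2 intensity of 16 or more, 324 of 460 were called higher and 0 lower. From 12 to under 16 these were 1220 and 6 of 5269, and under 12 they were 1493 and 52 of 12340. By complex the medians were then 0.47 for complex I, 0.23 for II, 0.45 for III, 0.49 for IV and 0.63 for V. Statements that a member read lower therefore hold for the loess scale, since under median centring every tested member except Cox6a2 had a mean above 0.

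The arrays resembled each other as far for the subunits as for other genes. Across the 78 members the ratios of array 1 and array 2 were correlated with r = 0.52 (Pearson) and rho = 0.53 (Spearman). Across all genes tested the values were 0.53 and 0.56. These are descriptions across genes, which are not independent replicates, and the arrays share the dye orientation.

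**Figure D2:**
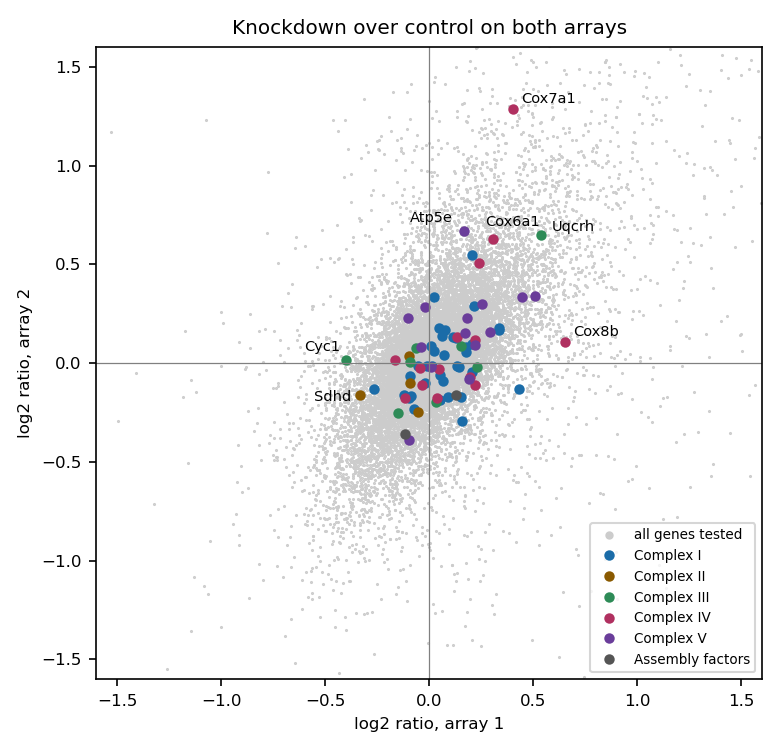
Log2 ratio on array 1 (horizontal) against array 2 (vertical) for all genes tested (grey points, axes cropped at 1.6) and the 78 tested members coloured by complex. Members crowd around the origin, and Cox7a1, at 0.40 and 1.29, lies farthest out.

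Complex I, the NADH dehydrogenase, had a median of 0.05, with 16 of its 36 genes higher on both arrays and 9 lower on both. That median was 0.07 on array 1, -0.02 on array 2 and -0.0084 with the scanner software's processed signals. All 36 were within 1.5-fold on both arrays. Its accessory subunits, which surround and stabilise the catalytic arm and the membrane arm, gave the highest values. Ndufa6, which carries the LYR motif and binds the acyl carrier subunit, read 0.21 and 0.55, a mean of 0.38 ± 0.24 (SD, n = 2). Ndufa3 read 0.33 and 0.18 and Ndufa11 0.34 and 0.17, both membrane arm subunits. Ndufa1, also of the membrane arm, read 0.21 and 0.29. Adjusted p-values by limma with Benjamini-Hochberg adjustment for these 4 genes lay at 0.233, 0.252, 0.257 and 0.235, so none passed.

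The 7 nuclear core subunits, which hold the flavin, the iron-sulfur clusters and the quinone site, had a median of -0.08. Of these, 4 read lower on both arrays and 2 higher, whereas among the 29 accessory subunits 5 read lower and 14 higher, with a median of 0.06. Of all genes tested, 29.4% read lower and 40.6% higher, and of those from 12 to under 16 in log2 intensity 39.2% and 33.9%. The core subunits were dimmer, at a median log2 intensity of 14.6 beside 15.4 for the accessory ones. What part brightness has in the contrast was not tested. The difference between core and accessory subunits was not tested, and the median of the whole complex was 0.47 under median centring. Ndufs1, with the largest set of iron-sulfur clusters, read -0.09 and -0.17. Ndufs3, next to the quinone site, read -0.10 and -0.18, and the flavin-binding Ndufv1 -0.09 and -0.07. These 3 were low on both arrays, but by less than 0.2. Ndufv2, the partner of Ndufv1, read higher at 0.17 and 0.06. Ndufs7, which holds the last cluster before ubiquinone, read 0.01 and 0.09. Ndufs8 had opposite signs, 0.05 and -0.19. Outside the core, the lowest pairs were those of Ndufs6, at -0.07 and -0.24, and Ndufb7, at -0.12 and -0.16, both accessory.

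Grouped by letter, a division made after the values were seen, the 14 Ndufa genes had a median of 0.13 with 9 higher and 0 lower on both arrays. The 8 Ndufs genes had a median of -0.10 with 2 higher and 5 lower, and the 10 Ndufb genes a median of 0.06 with 3 higher and 3 lower. The letters denote fractions and protein classes of the purified enzyme, not one function. Ndufa4, named for complex I but now known as a complex IV subunit, differed most between arrays in this group, with 0.43 on array 1 and -0.13 on array 2. The assembly factor Ndufa12l (Ndufaf2) read -0.12 and -0.36, and Ndufaf1 0.13 and -0.16.

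At the brightest probe of each gene, complex II, succinate dehydrogenase, was the only complex with 0 genes higher on both arrays. It had a median of -0.12, which became 0.23 under median centring. Sdhd, a membrane anchor with part of the heme and quinone sites, gave Cy5 signals of 94926 and 68746 and Cy3 signals of 41381 and 26540. Its ratios were -0.33 and -0.16, a mean of -0.25 ± 0.12 (SD, n = 2), with an adjusted p of 0.265 by limma with Benjamini-Hochberg adjustment. Both arrays were thus below 0 for Sdhd, the lowest mean of any member. The iron-sulfur subunit Sdhb read -0.05 and -0.25, and Sdhc, the other anchor, -0.09 and -0.10. The flavoprotein Sdha, where succinate is oxidised, read -0.10 and 0.04. Its second probe, of nearly equal brightness, read 0.11 and 0.32, higher on both arrays, so the count of 0 rests on the choice of probe. With 4 genes and 2 arrays these values are a description. None of the 4 differed from control at an unadjusted limma p under 0.05.

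Complex III, the cytochrome bc1 complex, spread widely around a median of -0.02, with 2 of 8 genes higher and 1 lower on both arrays. Uqcrh, the hinge protein that helps cytochrome c dock on cytochrome c1, gave Cy5 signals of 307643 and 313984 and Cy3 signals of 67580 and 64474. Its ratios of 0.54 and 0.65 were close to each other, with a mean of 0.59 ± 0.08 (SD, n = 2; limma SE 0.09), or 1.51-fold. It had the lowest adjusted p of the members, 0.178 by limma with Benjamini-Hochberg adjustment, and did not pass. The second Uqcrh probe read 0.36 and 0.41, in the same direction. That second probe is shown because an open reading frame runs through it and it repeats the direction of the brighter one. Positions in exons or untranslated regions were not looked up for any probe. It maps to chromosome 4, bases 115567819 to 115567878 on build mm8, minus strand, and is 60 bases long.
Uqcrh: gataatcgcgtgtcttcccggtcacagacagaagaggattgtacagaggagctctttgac
The catalytic subunits and core proteins had lower ratios than Uqcrh. Cyc1, which carries the heme of cytochrome c1, read -0.40 on array 1 and 0.02 on array 2. Uqcrfs1, the Rieske iron-sulfur protein, read 0.15 and 0.09. The core proteins Uqcrc1 and Uqcrc2, related to mitochondrial processing peptidases, read -0.09 and 0.00 and -0.07 and 0.08. Uqcrb, a ubiquinone-binding protein, was the gene lower on both arrays, with -0.15 and -0.25. On the loess scale, proteins that work side by side in this complex therefore had ratios on either side of 0. Under median centring every gene of the complex had a mean above 0, the lowest being Uqcrb at 0.23.

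Complex IV, cytochrome c oxidase, had a median of 0.06, with 6 of its 14 tested genes higher on both arrays and 3 lower. That median was 0.16 on array 1 and -0.01 on array 2, and the 6 include Cox8b, whose control signal was not well above background. The muscle isoform Cox7a1 gave Cy5 signals of 5710 and 8898 and Cy3 signals of 1827 and 1368. Its ratios were 0.40 and 1.29, a mean of 0.84 ± 0.62 (SD, n = 2; limma SE 0.25), or 1.80-fold, the highest mean of the members. The adjusted p was 0.215 by limma with Benjamini-Hochberg adjustment. Cox7a1 was higher on both arrays, but array 2 carried most of the difference, and the gap between the arrays exceeded the value on array 1. The Cox7a1 probe is shown as the member that lay farthest from equality. It maps to chromosome 7, bases 29894078 to 29894689 on mm8, plus strand, a span of 612 bases, so the match is interrupted in the genome.
Cox7a1: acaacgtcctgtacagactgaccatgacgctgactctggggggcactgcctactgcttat
The ubiquitous counterpart Cox7a2 read -0.03 and -0.11, with no departure of comparable size. The Cox6a pair did not repeat this order. Among the Cox6a genes it was the ubiquitous Cox6a1 that read higher, 0.31 and 0.63 (mean 0.47 ± 0.23, SD, n = 2), while the muscle form Cox6a2 read -0.12 and -0.18. The Cox6a2 probe was dim, at a mean log2 intensity of 8.29 beside 17.95 for Cox6a1, though well above background in both dyes. Muscle Cox8b read 0.65 and 0.11, but its control signal on both arrays was not well above background. It entered the test through the knockdown dye alone, so its control level is not measured and no fold is drawn from it. Its ubiquitous partner Cox8a read 0.13 on both arrays, and the order of this pair is not read. Cox6b1 read 0.05 and -0.03, and the testis form Cox6b2 -0.05 and -0.03. None of these isoforms passed the test.

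Markers of differentiated myotubes were read beside these muscle forms. Of 6 markers, 3 were higher on both arrays, 1 lower on both and 2 of opposite sign, with a median of 0.27. Myogenin (Myog), an early transcription factor of differentiation, read 0.79 and 0.51, and skeletal actin (Acta1) 1.19 and -0.40. The summed raw signal of the myotube markers was 3011 to 3366 in the knockdown dye and 1059 to 1343 in the control dye, and 5 of 6 were well above background in both dyes on both arrays. Whether they have a part in the Cox7a1 and Cox8b ratios was not tested. Among the remaining complex IV genes, Cox6c read 0.24 and 0.51. Cox4i1, the main form of a large regulatory subunit that the name rule does not take, read -0.21 and -0.02.

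Complex V had the highest median of the complexes, 0.16, with 8 of 14 genes higher on both arrays and 1 lower. That median was 0.04 with the scanner software's own processed signals and -0.00 in the authors' deposited value table, where fewer members could be tested. The genes higher on both arrays were 57.1% of complex V, beside 40.6% of all genes tested, and those lower 7.14% beside 29.4%. Among all genes at a mean log2 intensity of 16 or more, 58.0% read higher, 18.7% lower and the median was 0.17. The median intensity of complex V was 16.3. The 5 head subunits, which form the catalytic part and its central stalk, had a median of 0.28 with 4 higher on both arrays. Atp5b is among these 4, and among the 8 of the complex, at its brightest probe only. Its other probes read lower on both arrays. Atp5b, the catalytic beta subunit, gave ratios of 0.51 and 0.34 at its brightest probe, a mean of 0.42 ± 0.12 (SD, n = 2). Atp5e, the epsilon subunit of the stalk, read 0.17 and 0.67, and the gamma subunit Atp5c1, whose rotation drives catalysis, 0.26 and 0.30. The alpha subunit Atp5a1, the partner of beta in the ring, had opposite signs, -0.10 and 0.23. Atp5j, coupling factor 6 of the outer stalk, read 0.44 and 0.33. Adjusted p-values by limma with Benjamini-Hochberg adjustment were 0.187 for Atp5b, 0.266 for Atp5e and 0.188 for Atp5j. The names Cox6c, Ndufa1 and Atp5c1 were added to the naming rule after their values were seen.

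The membrane ring of complex V is built of identical c subunits, which 3 genes encode with the same mature protein. Atp5g1 read -0.10 and -0.39, lower on both arrays. Atp5g3 read 0.18 and 0.23, higher on both, and Atp5g2 -0.02 and 0.28. On the loess scale and at these probes, the 3 genes for 1 protein therefore pointed in different directions. Adjusted p-values by limma with Benjamini-Hochberg adjustment were 0.322, 0.280 and 0.564 in that order, and the difference between the genes was not tested. The second Atp5g2 probe read 0.07 and 0.31, higher on both arrays. Under median centring all 3 genes had means above 0, at 0.18 for Atp5g1, 0.80 for Atp5g3 and 0.63 for Atp5g2.

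Probes of the same gene did not always give the same sign, which bears on how far a ratio of 0.2 to 0.4 can be read. Among the 22 members with more than 1 tested probe, 14 had means of 1 sign and 8 did not. The 8 were Atp5a1, Atp5b, Ndufa12, Ndufa3, Ndufa8, Ndufb2, Ndufc1 and Sdha. The median difference between the highest and lowest probe mean was 0.09, and the widest was 0.62, in Atp5b. The brightest Atp5b probe read 0.51 and 0.34, but the others read -0.15 and -0.14 and -0.16 and -0.23. The gap between the brightest probe and the others was wider than the gap between arrays of any of the 3 probes. In the fit to the authors' deposited value table the mean for Atp5b was -0.18. The probes are shown because the direction of Atp5b rests on the choice among them. All lie on the plus strand of chromosome 10 on mm8, the brightest at bases 127493148 to 127493207 and the others at 127488462 to 127488521 and 127487371 to 127488049, upstream of it in the gene. Only the first 30 bases of the brightest are given, as no open reading frame runs through the whole of it.
Atp5b brightest probe, first 30 bases: acaagagccttgattgaagatgtgatgttc
Atp5b probe at 127488462: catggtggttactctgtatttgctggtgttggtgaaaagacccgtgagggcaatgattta
Atp5b probe at 127487371: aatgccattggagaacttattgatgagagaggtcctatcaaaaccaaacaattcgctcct
For Sdha the probes read -0.10 and 0.04 and 0.11 and 0.32, at nearly equal brightness (mean log2 intensity of 12.70 and 12.69), so the sign of Sdha was set by a choice between almost equal probes. The brighter lies on chromosome 13, bases 74794310 to 74794369 on mm8, minus strand.
Sdha: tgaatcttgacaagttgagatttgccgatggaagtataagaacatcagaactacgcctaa
For Ndufa3 the dimmer probe had a mean of -0.01 and the brighter of 0.26, and the dimmer one was near the low end of the intensity range at 7.47.

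**Figure D3:**
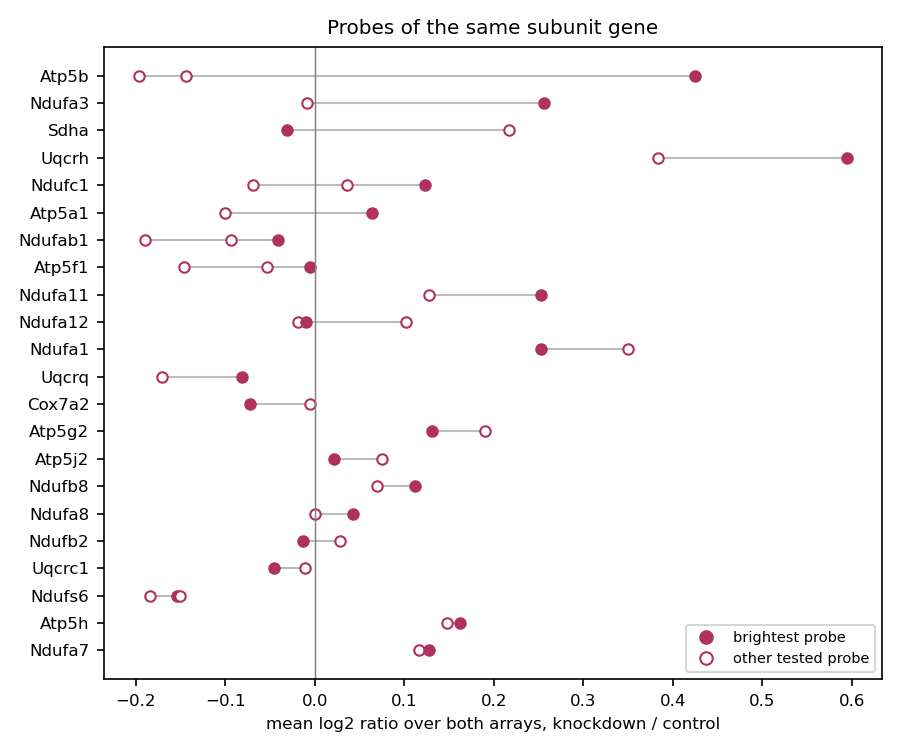
Mean log2 ratio of each tested probe (horizontal) for the 22 members with more than 1 tested probe, with the brightest probe filled and the others open. Genes are ordered by the distance between probes, which reaches 0.62 in Atp5b, whose brightest probe alone lies above 0.

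Brightness and ratio were related among the subunits. Of the 25 members at a mean log2 intensity of 16 or more, 16 read higher on both arrays and 0 lower, with a median of 0.13. Of the 53 dimmer members, 16 read higher and 18 lower, with a median of -0.01. The same division among all genes gave a median of 0.17 for the 460 at 16 or more, with 267 higher and 86 lower, and of 0.03 for the 17609 below 16, with 7068 higher and 5226 lower. The 5269 of these from 12 to under 16, where most of the dimmer members lie, had a median of -0.01. Across the 78 members the correlation of ratio and intensity was r = 0.12 (Pearson) and rho = 0.33 (Spearman), which became 0.39 and 0.40 without the 4 dimmest. Across all genes they were -0.05 and -0.07. The limits of 12 and 16 were chosen after the values were seen. Uqcrh, Cox6a1, Cox6c, Atp5b, Atp5c1 and Atp5j, which are 6 of the 9 members at an unadjusted limma p under 0.05, were all in the bright class. They are 24.0% of the bright members, beside 138 of all 460 bright genes, or 30%, that read higher at that level. What part brightness has in their ratios was not tested. No member spot was saturated.

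**Figure D4:**
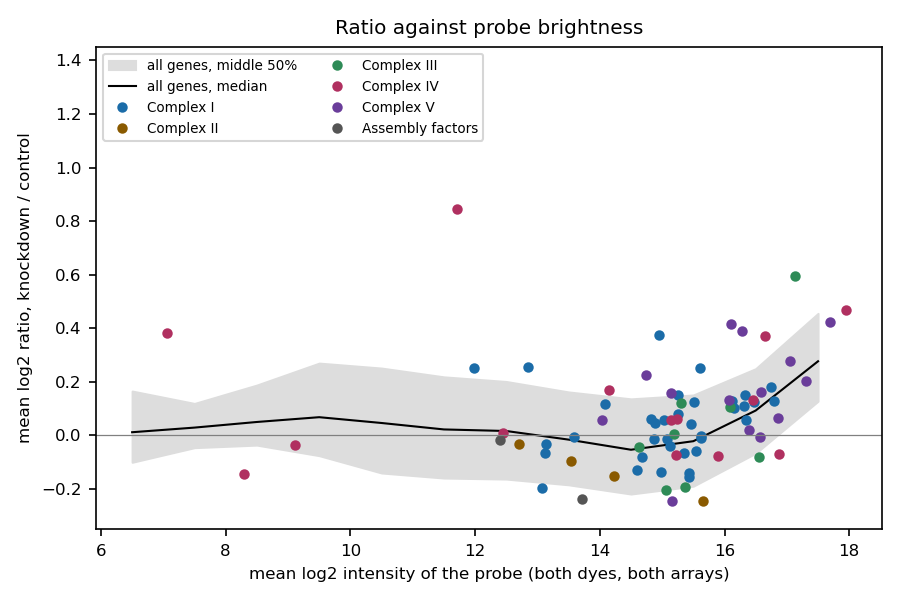
Mean log2 ratio over both arrays (vertical) against the mean log2 intensity of the probe (horizontal) for members, coloured by complex, over the median (line) and middle 50% (band) of all genes tested. Above 16 both the members, with a median of 0.13, and all genes, with a median of 0.17, lie mostly above 0.

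Genes that build or supply the respiratory chain were read from lists alongside the subunits, and in none of the lists was a gene called. Of 43 tested assembly factors, 12 read higher on both arrays and 22 lower, with a median of -0.06. These counts are 27.9% and 51.2% of the list, which includes the members Ndufaf1 and Ndufa12l, beside 40.6% and 29.4% of all genes. At an unadjusted limma p under 0.05, 5 were higher and 8 lower, which is 11.6% and 18.6% beside 13.4% and 7.49% of all genes. The median log2 intensity of the assembly factors was 12.8. All genes from 12 to under 16 had 11.9% higher and 12.8% lower at that level. On both arrays, 33.9% of them read higher and 39.2% lower. Ndufaf3 and Ndufaf4, which act together in building the quinone module of complex I, lay at opposite ends, the former at 0.47 and 1.42 and the latter at -0.38 and -1.10. The 3 tested probes for mitochondrially encoded subunits stayed near 0. ND4L read 0.06 and 0.21, CYTB -0.07 and 0.01, and COX2 -0.08 and -0.05.

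Among 18 electron carriers and exchangers, 5 read higher and 8 lower on both arrays, with a median of -0.01. These counts are 27.8% and 44.4% of the list, beside 40.6% and 29.4% of all genes. The list had a median log2 intensity of 14.1, and all genes from 12 to under 16 had 33.9% higher and 39.2% lower. Cytochrome c (Cycs), the carrier between complexes III and IV, read -0.32 and -0.74. Pdss1, which starts the side chain of ubiquinone, read -0.50 and -0.79, the lowest of its list, and Etfdh, which feeds electrons from fatty acid oxidation to ubiquinone, the highest with 0.28 and 0.63. Adjusted p-values by limma with Benjamini-Hochberg adjustment were 0.201, 0.182 and 0.206 in that order. The means of Cycs and Pdss1, -0.53 and -0.65, were below the lowest mean of the members, -0.25, but did not pass the test.

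Of 15 regulators of mitochondrial biogenesis, 2 read higher and 7 lower on both arrays, with a median of -0.11. These counts are 13.3% and 46.7% of the list, beside 40.6% and 29.4% of all genes, and the difference was not tested. Ppargc1a, which encodes PGC-1α, read 0.04 and -0.06, and Tfam, the packaging and transcription factor of mitochondrial DNA, 0.07 and -0.13. Pprc1, a serum-induced relative of PGC-1α, was the lowest, at -0.27 and -0.65, and Tfb1m, a methyltransferase of mitochondrial ribosomal RNA, the highest, at 0.11 and 0.01. Of 18 genes of the citric acid cycle and pyruvate dehydrogenase, 4 read higher and 7 lower, with a median of -0.03. These counts are 22.2% and 38.9% of the list, which had a median log2 intensity of 14.5. All genes from 12 to under 16 had 33.9% higher and 39.2% lower. Citrate synthase (Cs) read 0.31 and 0.29 and the isocitrate dehydrogenase subunit Idh3a -0.26 and -0.38. Among 8 subunits and associated proteins that the name rule leaves out, 3 read higher and 3 lower, each 37.5% of the list. Dmac2l, which the files call Atp5s, was the highest at 0.46 and 0.41. These 8 include the inhibitor Atpif1 and Cycs, which is also counted among the carriers and was the lowest here.

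**Figure D5:**
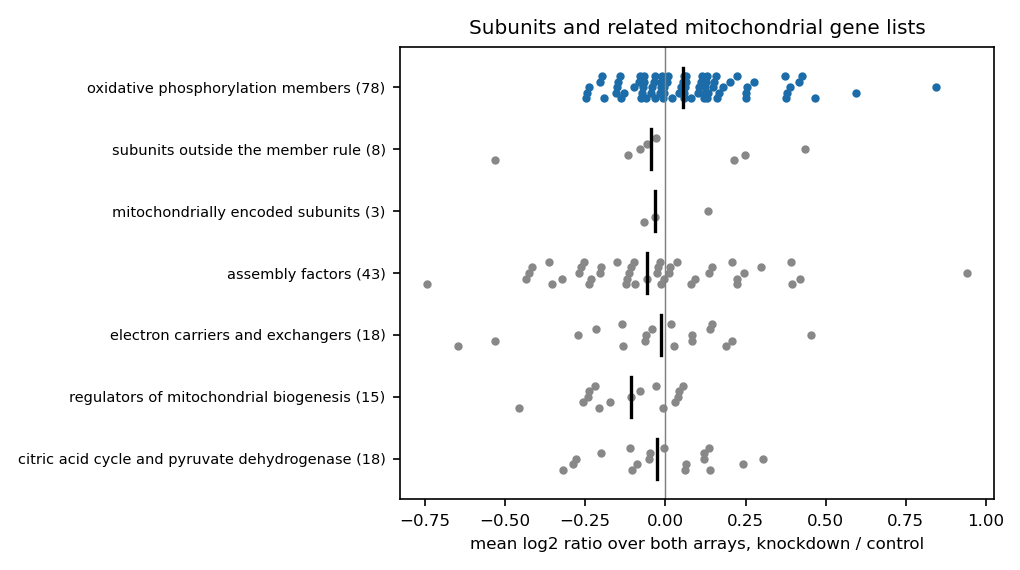
Mean log2 ratio over both arrays for the 78 tested members (blue) and for each tested gene of the related lists (grey), with the median of each group as a black bar and the number of genes in brackets. The members' median of 0.06 and the list medians, from -0.11 for the regulators to -0.01 for the carriers, all lie near 0. Ndufaf1 and Ndufa12l (Ndufaf2) are drawn both as members and as assembly factors.

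Promoter sequences were read to describe what the members share beyond their function. RefSeq promoters on build GRCm38.p6, from 250 bases before to 50 after the start, matched 66 of the 79 members by symbol. The palindromic motif of NRF1, a regulator of many respiratory genes, was present on either strand in 16 members, or 24.2%, beside 5.19% of 27025 genes with a promoter. AAGATGGC, read by YY1, was present in 10, or 15.2% beside 3.19%. CCGGAAGT, read by GABPA, occurred in 5, or 7.58% beside 4.31%, and CAAGGTCA, read by the estrogen-related receptors, in 4, or 6.06% beside 1.76%. The motifs were chosen after the ratios were known, and none contains another. Tested members with a motif and those without it had median ratios of 0.10 and 0.06 for NRF1, 0.05 and 0.06 for YY1, 0.13 and 0.06 for GABPA and 0.14 and 0.06 for the estrogen-related receptors. A match describes letters, not binding.

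The 100 bases before the start are printed for 3 members at the ends of the range, with motif letters in capitals. Sdhd holds an NRF1 motif and Uqcrh a GABPA motif on the reverse strand, while in Cox7a1 none of the 4 motifs was in these bases. On GRCm38.p6 they are Uqcrh, chr4:116075071-116075170 on the minus strand, Cox7a1, chr7:30184071-30184170 on the plus strand, and Sdhd, chr9:50603850-50603949 on the minus strand.
Uqcrh: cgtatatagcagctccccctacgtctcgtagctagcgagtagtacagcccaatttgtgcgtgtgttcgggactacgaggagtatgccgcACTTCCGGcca
Cox7a1: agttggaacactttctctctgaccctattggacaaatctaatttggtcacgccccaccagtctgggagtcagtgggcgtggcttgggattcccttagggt
Sdhd: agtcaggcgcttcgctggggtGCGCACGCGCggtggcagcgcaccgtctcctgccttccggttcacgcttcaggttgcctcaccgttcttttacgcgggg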

How the data were processed

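The submitters' processing notes name Agilent Feature Extraction 9.5.3.1 for reading the images, and probe coordinates are on mm8, per the file headers. The authors deposited the mean and background intensity of each of 45018 spots in both dyes, without subtraction, and a table of log2 ratios. The scanner files the authors deposited also hold a log10 ratio of Cy5 over Cy3, computed by Feature Extraction from its processed signals. The table equals that ratio turned to log2, within 0.001, for 99.9% of probes on each array. Its median is 0 on each array, and 1165 and 2004 of its values are blank. Here limma 3.58.1 in R 4.3.3 corrected background (normexp, offset 50) and normalized each array by loess (span 0.3). The 1639 control spots had weight 0, and the 154 and 237 outlier spots were left out. Spots of 1 probe were averaged. A probe was tested if well above background in at least 1 dye on both arrays, and the brightest probe stood for its gene. The fit, lmFit and eBayes with Benjamini-Hochberg adjustment over 18069 genes, had 1 residual degree of freedom. Over 2 arrays an exact sign-flip test cannot go below p = 0.5. The fit was tested on simulated ratios, and its share of false calls depended on how gene variances were drawn and, in one of the ways tried, was far above the threshold. A call under any setting should be read with that limit.

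Of 41174 probes, 23374 were named through accessions, 8158 by the file's name, 6735 by current symbol and 2907 by synonym. Members and lists were chosen with earlier results of these data known. Named members are, per complex, up to 3 with the highest and lowest means of 1 sign on both arrays, isoform pairs, core subunits and those whose probes disagree. One core subunit is counted in the groups but not reported here by name. Alternatives covered background, scaling, filter, probe rule, the deposited table and each array alone. The number of arrays limits the precision.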

Additional observations from a re-analysis of the deposited data

How the results depend on the processing

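Results rest on 2 arrays and on the scaling of each. Each array paired knockdown with control RNA, and the fit used the ratio within each array. No further pairing was possible, because the series has a single group. With no background correction, and with both dyes required above background, no count or median of the members moved beyond its limits and no named member turned sign. A list median moved under each. In the former, that of the subunits and associated proteins outside the member rule moved from -0.044 to -0.026. In the latter, that of the isoform pairs moved from 0.070 to 0.0088. Median centring had the widest effect. It gave 32 of 78 members called and 3095 of 18069 genes called in all by limma with Benjamini-Hochberg adjustment. With it 59 members were at an unadjusted limma p under 0.05, 74 were higher and 0 lower on both arrays, and 16 were at least 1.5-fold apart. Medians under it were 0.48 for members, 0.47, 0.23, 0.45, 0.49 and 0.63 for complexes I to V, and 0.21 for all genes, of which those at log2 intensity 16 or more had 0.72. The cause was not tested. Apart from calls, counts of members here and under the alternatives below are given without the share of all genes. All genes moved up as well under median centring, so its counts are not read as a trait of the members.

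Named members with means below 0 turned above 0 under median centring, namely Atp5g1 at 0.18, Cox6b2 at 0.17, Cox7a2 at 0.36, Cyc1 at 0.26, Ndufa12 at 0.45, Ndufb2 at 0.41, Ndufb7 at 0.31, Ndufs1 at 0.26, Ndufs3 at 0.28, Ndufs6 at 0.30, Ndufs8 at 0.24, Ndufv1 at 0.32, Sdha at 0.26, Sdhb at 0.21, Sdhc at 0.22, Sdhd at 0.23, Uqcrb at 0.23 and Uqcrc1 at 0.35. The scanner's processed signals gave 0 members at an unadjusted p under 0.05, and medians of 0.0019 for members, -0.0084 for complex I, -0.040 for complex III, 0.040 for complex V and -0.0099 for all genes. Signs turned there for Atp5a1 at -0.060, Cox6b1 at -0.0019, Ndufa8 at -0.0085, Sdha at 0.22 and Uqcrc2 at -0.028. The deposited value table, where 49 members could be tested, gave 1 member at an unadjusted p under 0.05, 13 members higher on both arrays, and medians of -0.033 for members, -0.040 for complex III, -0.0046 for complex V and -0.014 for all genes. Signs turned there for Atp5a1 at -0.069, Atp5b at -0.18, Cox6b1 at -0.0019, Ndufa8 at -0.0085 and Uqcrc2 at -0.028. Averaging probes turned Atp5a1 at -0.018, Ndufa12 at 0.024, Ndufb2 at 0.0073 and Sdha at 0.093, and normexp with offset 10 turned Uqcrc2 at -0.00027. The median of all genes was 0.016 with no filter on dim probes, 0.025 with averaged probes and 0.027 with offset 10.

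With a single array left, a value has no test. Leaving out either array in turn, members higher numbered from 40 to 52, members lower from 26 to 38 and members at least 1.5-fold apart from 1 to 4. Medians ran from 0.0083 to 0.069 for members, from -0.015 to 0.069 for complex I, from -0.13 to -0.097 for complex II, from -0.016 to 0.010 for complex III, from -0.0061 to 0.16 for complex IV, from 0.18 to 0.19 for complex V and from 0.027 to 0.032 for all genes. The members whose sign then depended on the array were Atp5a1 (from -0.10 to 0.23), Atp5g2 (from -0.023 to 0.28), Cox6b1 (from -0.029 to 0.046), Cyc1 (from -0.40 to 0.017), Ndufa12 (from -0.17 to 0.15), Ndufa4 (from -0.13 to 0.43), Ndufb2 (from -0.091 to 0.064), Ndufs8 (from -0.19 to 0.054), Sdha (from -0.099 to 0.037), Uqcrc1 (from -0.094 to 0.0037) and Uqcrc2 (from -0.065 to 0.077).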

Other observations

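Further respiratory subunits appeared on the array under clone names that the member rule does not take, and were named through their accession after values were seen. Ndufv3, an accessory subunit next to the flavin site of complex I, read 0.39 and 0.70 (mean 0.54 ± 0.22, SD, n = 2). Its adjusted p was 0.186 by limma with Benjamini-Hochberg adjustment. That mean lay above the 0.38 of Ndufa6, the highest complex I gene among the members. Uqcr10, a small subunit of complex III, read -0.04 and -0.20.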
